A study of Mus musculus with 6 samples.

Results

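The arrestin-domain family was followed in luminal uterine epithelium of mice through 5 genes, Arrdc1, Arrdc2, Arrdc3, Arrdc4 and Txnip, chosen by the gene symbol of their probes. They had 7 of the 45281 probes on the array, and all 5 genes were among the 11933 that were above background on enough arrays to be tested. Arrdc3 was chosen because of its higher signal in the knockout in this same comparison, so its difference is a description and carries no test. The other 4 genes were added by family name, with earlier results of these data known. In the knockout Arrdc3 lay 5.46-fold higher, with no overlap between the groups. Txnip lay at 0.525 times its Control signal by the brighter of its probes, and its groups did not overlap either. Arrdc1, Arrdc2 and Arrdc4 had overlapping groups.

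The members share the arrestin fold with the beta-arrestins, but most carry short proline-rich motifs in their tails that bind the WW domains of NEDD4-family ubiquitin ligases. As adaptors they bring such a ligase to receptors and transporters at the membrane, which are then ubiquitinated and moved to endosomes. TXNIP also binds thioredoxin, and TXNIP and ARRDC4 lower glucose uptake. Both genes are known targets of the glucose-sensing MondoA and MLX transcription factors, and Txnip is known to answer to FOXO factors and to steroid hormones in several tissues.

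RNA from isolated luminal epithelium at 3.5 days post coitum was measured on 1 Illumina mouse bead chip, with 3 arrays of Alk3 conditional knockout females (CKO, replicates D, E and F) and 3 of Control females (replicates A, B and C). Alk3 is the older name of Bmpr1a, which codes for a receptor kinase of the BMP pathway. CKO females carried Alk3flox/flox, with the floxed exon coding for part of the extracellular domain, and Pgrcre/+, a Cre knocked into the progesterone receptor locus that acts in every cell type which uses that gene. The genotype of Control females is not given beyond that word, all females were of a mixed background of 129S5/SvEvBrd and C57BL/6J, and ages are not given. Nothing states that the arrays come from different animals, and p-values here therefore measure the spread of these samples alone, which may be technical. All CKO arrays lay at positions D to F of the chip and all Control arrays at A to C, and the effects of position and group cannot be told apart.

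Raw median intensities were 79.7 to 87.6, and 16620 to 17536 probes stood above background on each array. Precision is limited by having 3 arrays a group. CKO replicate E stood apart from the other arrays, with a mean correlation of 0.936 with them, where the others had 0.953 to 0.970. Of the pan-epithelial markers 7 of 8 were measured, and of the luminal markers 7 of 8. The single probes of Epcam and Calb1 were below background on every array. The targeted gene, Bmpr1a, had a mean of 8.60 ± 0.31 in CKO and 9.19 ± 0.20 in Control (SD, n = 3 each) by its brighter probe, on the normalised log2 scale used throughout. The CKO arrays lay wholly below the Control arrays, as for 5.01% of all genes. The difference of -0.60 had an adjusted p of 0.976 by limma and did not pass. Its other probe overlapped, at 6.40 ± 0.69 in CKO and 6.91 ± 0.27 in Control. The place of these probes relative to the floxed exon was not determined here.

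RefSeq promoter windows of GRCm38.p6 were matched for all 5 members. The windows of the 3 members with the largest differences are shown, as the 250 bases before the start of transcription, read 5′ to 3′ on the strand of the gene. The window of Txnip is chr3:96557707-96557956 on the plus strand, that of Arrdc3 chr13:80883134-80883383 on the plus strand, and that of Arrdc4 chr7:68749239-68749488 on the minus strand. Capitals mark matches to the motifs named below.
Txnip: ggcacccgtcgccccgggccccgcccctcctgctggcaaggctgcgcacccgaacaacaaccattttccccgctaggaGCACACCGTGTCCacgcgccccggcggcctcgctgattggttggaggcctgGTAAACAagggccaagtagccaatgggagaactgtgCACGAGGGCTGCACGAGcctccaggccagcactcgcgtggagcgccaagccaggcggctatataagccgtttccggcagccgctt
Arrdc3: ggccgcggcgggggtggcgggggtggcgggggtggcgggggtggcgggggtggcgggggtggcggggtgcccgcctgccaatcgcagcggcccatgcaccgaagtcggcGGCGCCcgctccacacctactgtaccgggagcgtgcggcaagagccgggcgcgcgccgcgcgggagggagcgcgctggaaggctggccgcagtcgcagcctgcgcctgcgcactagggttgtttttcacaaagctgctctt
Arrdc4: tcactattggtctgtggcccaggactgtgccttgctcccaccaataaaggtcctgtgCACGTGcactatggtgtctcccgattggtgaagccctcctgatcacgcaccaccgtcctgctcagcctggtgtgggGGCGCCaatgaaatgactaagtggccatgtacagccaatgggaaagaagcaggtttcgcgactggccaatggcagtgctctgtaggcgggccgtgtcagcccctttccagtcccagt

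A set of 6 motifs was searched on both strands in the 300 bases from 250 before to 50 after the start. These were CACGTG (an E-box), the carbohydrate response element (a pair of E-boxes with 5 free bases between them, up to 1 mismatch allowed in each), GTAAACA (FOXO), the inverted repeat bound by glucocorticoid and progesterone receptors, GGCGCC (SMADs of BMP signalling) and TGACGTCA (CRE). A perfect copy of the carbohydrate response element contains the E-box. The Txnip window held a carbohydrate response element from 85 bases before the start, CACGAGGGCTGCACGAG, which 0.414% of 32851 windows hold. It also held GTAAACA from 121 bases before the start (3.65% of windows) and the receptor motif GCACACCGTGTCC from 172 bases before (0.475%). The Arrdc4 window held CACGTG from 193 bases before the start (7.15% of windows) and GGCGCC from 117 (11.9%). The Arrdc3 window shown held GGCGCC from 141 bases before the start. That gene has 3 listed windows, of which 2 overlap and share this match. TGACGTCA, held by 1.79% of windows, was in no window of a member, and Arrdc1 and Arrdc2 held none of the 6 motifs. A match is a description of the letters and not a bound site.

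Arrdc3 encodes an adaptor that in mammalian cells recruits NEDD4-family ligases to beta-adrenergic receptors and to integrin beta chains. Its single probe had a normalised log2 signal of 10.03 on CKO replicate D, 10.85 on E and 9.90 on F, against 8.02 on Control replicate A, 7.78 on B and 7.64 on C. Every CKO array lay above every Control array, and the gap between the lowest CKO and the highest Control array was 1.89. The means were 10.26 ± 0.51 in CKO and 7.81 ± 0.19 in Control (SD, n = 3 each), a difference of 2.45. By the size of the difference Arrdc3 ranked 5 of 11933 genes, and it was not among the 2 genes called over all genes, Gin1 and Cops8.

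Before any correction the same separation stood in the scanner intensities. Arrdc3 read 1033, 1872 and 971 on CKO replicates D, E and F, against 345, 302 and 255 on Control replicates A, B and C. The standard error over the beads of this probe was 4.36% to 8.33% of its intensity, from 31 to 47 beads an array, a technical error that leaves out the variation between samples. The authors' deposited processed intensities gave 1033, 1829 and 942 in CKO and 244, 204 and 184 in Control. Within CKO the spread was wider than within Control, with a range of 0.95 against 0.38, and replicate E was the highest array. Without E the difference was 2.17.

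**Figure D1:**
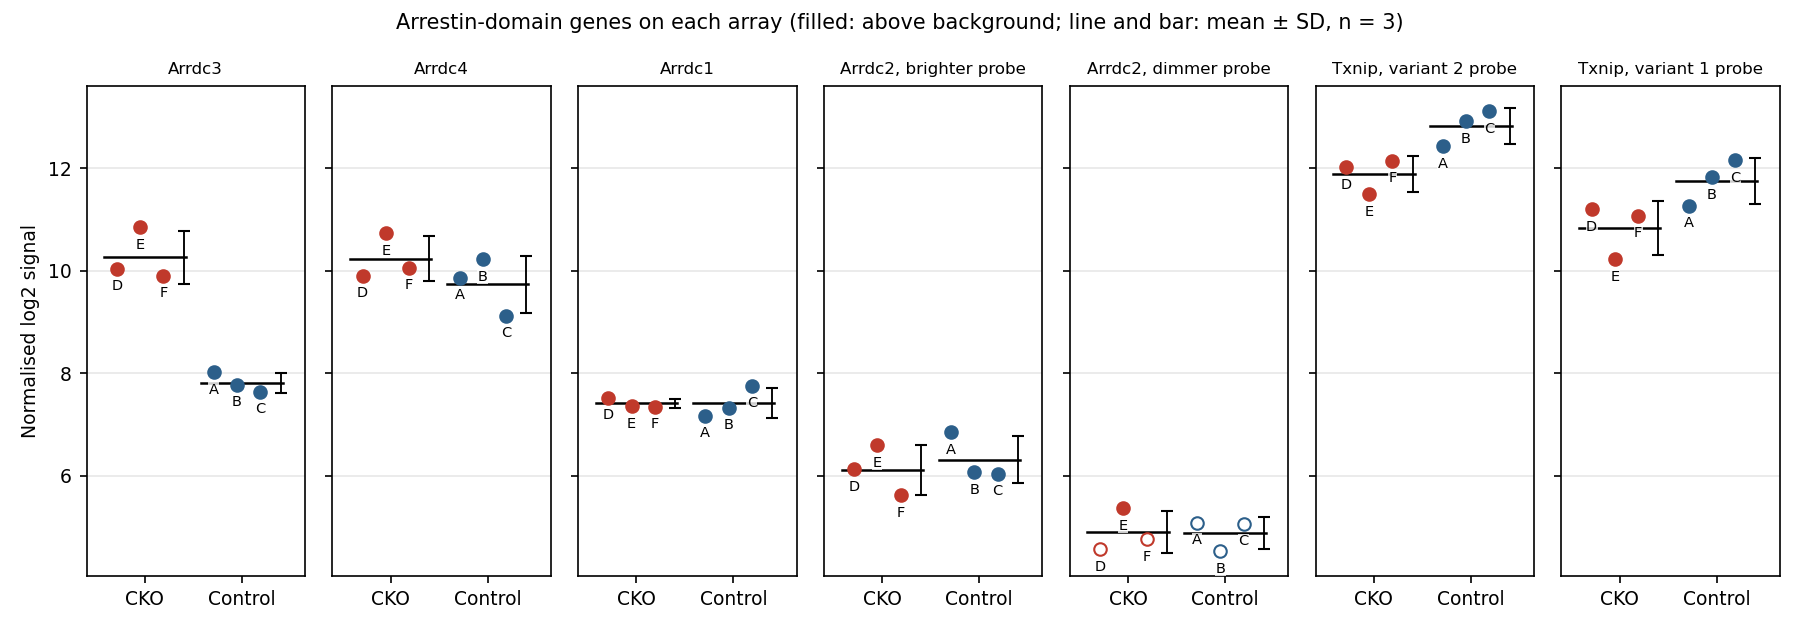
Normalised log2 signal (y axis) of all 7 probes of the 5 genes on each array, CKO replicates D to F in red on the left and Control replicates A to C in blue on the right of each panel; lines and bars are the mean and SD, and open circles are below background. Arrdc3 lay between 9.90 and 10.85 in CKO, above its 7.64 to 8.02 in Control, both Txnip probes lay lower on all 3 CKO arrays than on any Control array, and the other probes overlapped. Heights of different probes are not comparable with each other.

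Txnip, which encodes the thioredoxin-interacting protein, had 2 probes, which the definitions in the files assign to transcript variant 2 and to transcript variant 1. They are called the variant 2 and variant 1 probes after those definitions, and whether either is specific to its variant was not determined here. The variant 2 probe read 12.02, 11.50 and 12.15 on CKO replicates D, E and F, against 12.43, 12.92 and 13.11 on Control replicates A, B and C. No CKO array reached the lowest Control array, and 0.28 separated CKO replicate F from Control replicate A. The means were 11.89 ± 0.35 in CKO and 12.82 ± 0.35 in Control (SD, n = 3 each), a difference of -0.93 with an SE of 0.26 and a 95% confidence interval of -1.56 to -0.30. In limma's fit over all genes the adjusted p was 0.976, so Txnip did not pass.

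The variant 1 probe of Txnip gave the same picture. It read 11.21, 10.22 and 11.08 on CKO replicates D, E and F and 11.27, 11.83 and 12.15 on Control replicates A, B and C, a difference of -0.92. The groups again did not overlap, but the gap was only 0.065. The offset between the 2 probes, which is not a ratio of transcripts, differed by -0.014 between the groups, less than its SD of 0.23 in CKO and 0.10 in Control (n = 3 each). In scanner intensities the variant 2 probe read 2927 to 4458 over the CKO arrays and 6075 to 8671 over the Control arrays. Without replicate E the variant 2 difference was -0.74.

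Of the 5 members, 1 had CKO wholly above Control, where 5.63% of all genes did, and 1 had CKO wholly below, where 5.01% did. The rule chose Arrdc3 from this contrast, so nothing is read from the first count. A difference over 1 in size together with groups that do not overlap was found for Arrdc3 alone of the 5, and for 0.905% of all genes. Arrdc3 was chosen for its large difference, so nothing is read from this count either. By limma's adjusted p 0 members were called higher, against 0.0168% of all genes, and 0 were called lower, against 0% of all genes.

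Arrdc4, which encodes an adaptor close to TXNIP in sequence and in its effect on glucose transport, lay slightly higher in CKO with groups that overlapped. Its probe read 9.90, 10.73 and 10.06 on CKO replicates D, E and F, against 9.86, 10.22 and 9.12 on Control replicates A, B and C. Control replicate B lay above 2 of the 3 CKO arrays, and Control replicate C was the lowest array. The means were 10.23 ± 0.44 in CKO and 9.73 ± 0.56 in Control (SD, n = 3 each), a difference of 0.50 with an SE of 0.35 and an adjusted p of 0.976 by limma. The value was 0.19 without replicate C and 0.25 without replicate E. The differences of Arrdc4 and Txnip had opposite signs, and neither passed.

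Arrdc1 encodes the adaptor that drives budding of small vesicles from the plasma membrane together with TSG101. Its probe read 7.52, 7.36 and 7.35 on CKO replicates D, E and F and 7.17, 7.33 and 7.75 on Control replicates A, B and C. CKO lay inside the range of Control, and the difference was -0.0077 with a 95% confidence interval of -0.49 to 0.47. Its range over the 6 arrays, 0.58, was at least as wide as that of 28.6% of genes. Its sign changed without replicate C, E or F.

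Arrdc2 encodes another adaptor of the family, whose gene is known to respond to glucocorticoids in muscle. Its brighter probe read 6.13, 6.59 and 5.62 on CKO replicates D, E and F and 6.85, 6.07 and 6.04 on Control replicates A, B and C. The groups overlapped, the difference was -0.20 with a 95% confidence interval of -1.001 to 0.59, and the adjusted p was 0.977 by limma. Its sign changed without replicate A or F. The other Arrdc2 probe read 4.57, 5.37 and 4.76 on CKO replicates D, E and F and 5.08, 4.53 and 5.06 on Control replicates A, B and C. It was above background on CKO replicate E alone, and no fold is given for it. Arrdc5, which completes the family by name, had 1 probe, below background on all 6 arrays.

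The signals of Arrdc3 and of Txnip by its variant 2 probe ran opposite to each other array by array. From lowest to highest Arrdc3 the arrays stood in the order C, B, A, F, D, E. From highest to lowest Txnip by that probe the order was the same. The reversed order held inside each group as well as between the groups. By the variant 1 probe D (11.21) lay above F (11.08), so there it held inside Control but not inside CKO. Correlations of Txnip use its variant 2 probe. Across the 6 arrays, after removing each group's mean, the deviations of Arrdc3 and Txnip had a Pearson r of -0.90. Those of Arrdc4 and Txnip had one of -0.66. The deviations of Arrdc2 and Txnip had the largest r in size of the 10 pairs, -0.95, although the Arrdc2 groups overlapped. The deviations of Arrdc3 and Arrdc2 had an r of 0.85, those of Arrdc3 and Arrdc4 one of 0.70, those of Arrdc1 and Arrdc4 one of -0.74 and those of Arrdc1 and Txnip one of 0.66. These are descriptions over 6 arrays of 1 chip that share their normalisation, taken from all 10 pairs of members, and they carry no test.

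**Figure D2:**
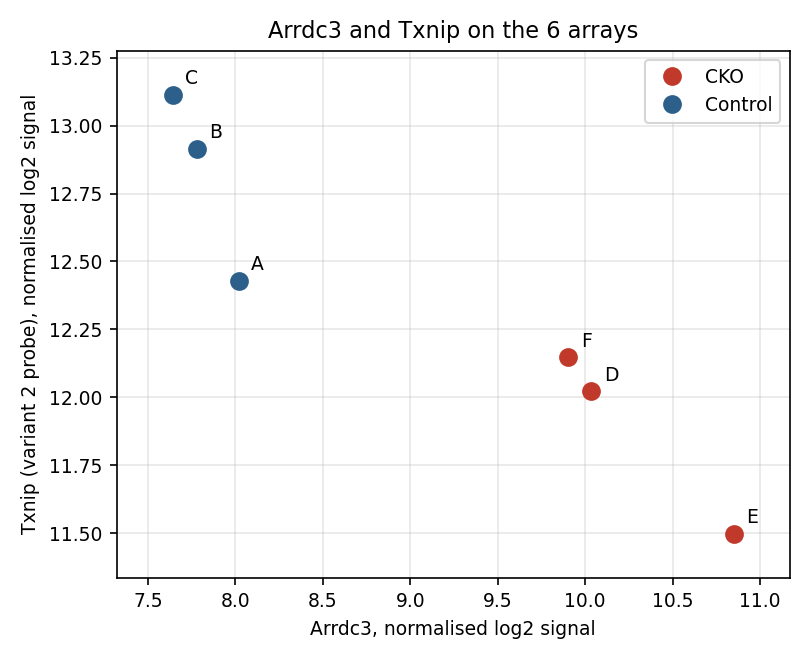
Normalised log2 signal of Arrdc3 (x axis) against that of Txnip by its variant 2 probe (y axis), 1 point for each array, CKO in red and Control in blue. The 3 CKO arrays sit at lower right with Arrdc3 from 9.90 to 10.85 and Txnip from 11.50 to 12.15, and the order of the arrays on one axis is the reverse of that on the other.

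The genes whose signals over the 6 arrays were most like those of a member were taken by Pearson r, from 2976 genes above background on every array with a range of at least 1 (2977 for Arrdc1, whose own range is smaller). Nearest to Arrdc3 were Kit, which encodes a receptor tyrosine kinase (r = 0.98), Nckipsd (0.98), Thap4 (0.97), Nop2, a nucleolar RNA methyltransferase (0.96), and Erdr1 (0.96). All 5 lay higher in CKO, Kit by 2.21, Erdr1 by 2.56, Thap4 by 1.39, Nckipsd by 0.997 and Nop2 by 0.77. Kit tracked Arrdc3 within the groups too, at 11.66, 12.31 and 11.43 on CKO replicates D, E and F and 10.19, 9.43 and 9.16 on Control replicates A, B and C. Because the Arrdc3 groups are far apart, r with it is large for any gene whose groups are likewise apart.

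Nearest to Txnip were Mab21l4 (r = 0.995), Vsnl1, a neuronal calcium sensor (0.98), Slain1 (0.98), Zfp277 (0.98) and Snurf (0.98). They differed by -1.13, -1.40, -0.86, -0.57 and -0.75. Nearest to Arrdc4 were Prkg1, a cyclic GMP-dependent kinase (0.99), Gins1 and Eif1a (0.98 each), Tmtc4 (0.97) and Pdlim4 (0.97), with differences from 0.35 for Eif1a to 0.99 for Pdlim4. Nearest to Arrdc1 were Edn2, an endothelin (0.98), Mphosph9 (0.97), Ap2a2, a subunit of the AP-2 endocytic adaptor (0.97), Csrnp2 (0.96) and Noct (0.95). Nearest to Arrdc2 were Nlgn2 (0.98), Dnajc28 (0.98), Zfp874b (0.97), Idh2 and Glipr1 (0.97 each). The lists of the 5 members share no gene.

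**Figure D3:**
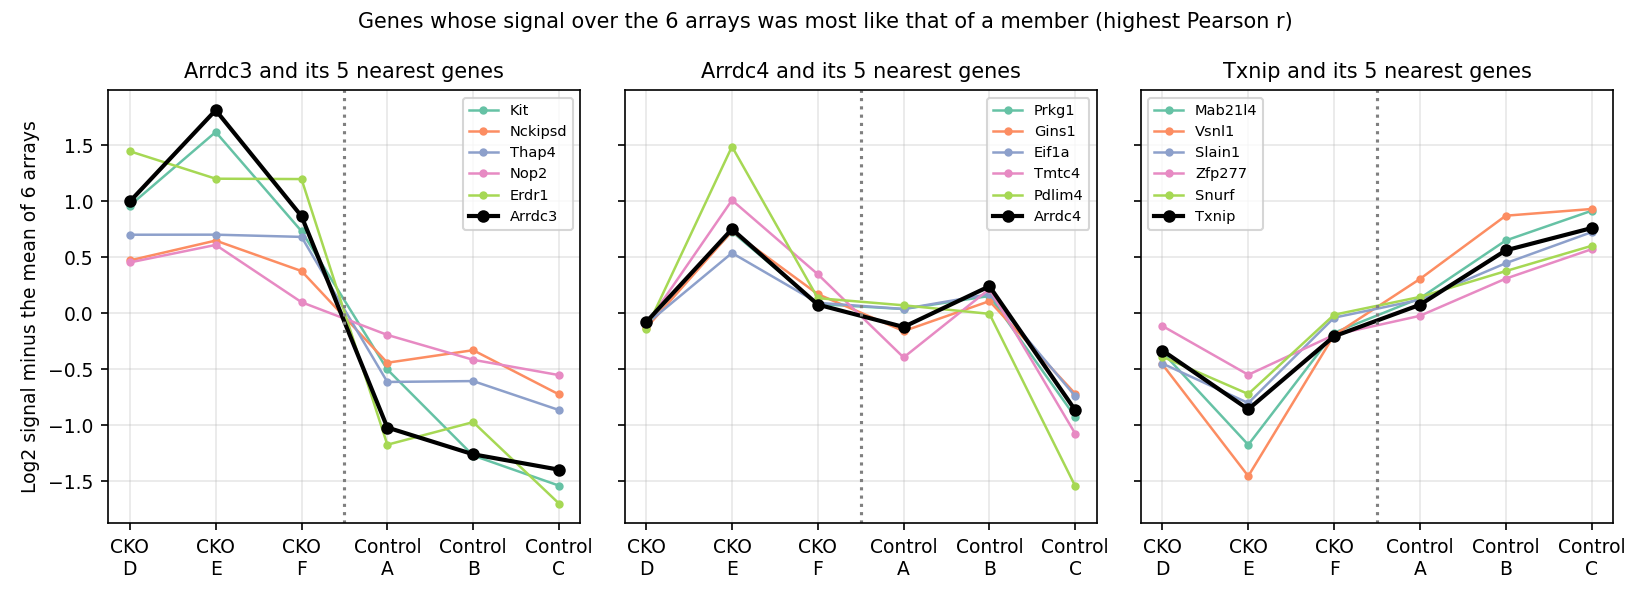
Normalised log2 signal minus the mean of the 6 arrays (y axis) on each array (x axis, CKO replicates D to F left of the dotted line, Control replicates A to C right of it), for Arrdc3, Arrdc4 and Txnip in black and the 5 genes nearest to each in colour. Lines join the values of 1 gene and stand for no order of the arrays. Kit follows Arrdc3 closely, CKO replicate E is the highest array of Arrdc4 and of its 5 genes, and the Txnip set is lowest on E and highest on Control replicate C.

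Genes that act with the family were described in 8 lists, chosen from background knowledge with earlier results of these data known. Counted once each and without the 5 members they held 105 genes, of which 82 were measured. By limma's adjusted p 0 were higher and 0 lower. In all 37 lay above 0 and 45 below, and the median difference was -0.023, beside -0.011 over all genes. CKO lay wholly above Control for 4 of the 82 and wholly below for 5, shares near the 5.63% and 5.01% of all genes.

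Among other arrestin-fold proteins 5 of 9 were measured, with a median of -0.010 and differences from -0.21 to 0.043. Vps26a and Vps26b, subunits of the retromer that sorts endosomal cargo, differed by -0.043 (SE 0.16) and 0.033 (SE 0.16), and Vps26c by -0.21 (SE 0.18). Arrb2, a beta-arrestin, was also measured in this list, while Arrb1 was above background on 1 array at most. The NEDD4-family ligases and their adaptors had 8 of 11 measured, 4 above 0 and 4 below. Itch differed by -0.34 (SE 0.19), Wwp1 by 0.26 (SE 0.16) and Wwp2 by 0.38 (SE 0.23), and Itch and Wwp1 were without overlap. Itch gave 0.0037 when its probes were averaged.

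Membrane cargo of the family had 13 of 14 measured, 10 above 0 and 3 below, with a median of 0.089. Slc11a2, an iron transporter, differed by 0.39 (SE 0.19) with groups that did not overlap, F2rl1, a protease-activated receptor, by 0.36 (SE 0.27), and Avpr2, the vasopressin receptor of the kidney, by 0.22 (SE 0.19). Slc2a1, the glucose transporter GLUT1, differed by 0.0069 (SE 0.21). Genes of ESCRT and vesicle budding had 12 of 13 measured, 4 above 0 and 8 below. Chmp4b differed by 0.37 (SE 0.18) and Hgs by 0.21 (SE 0.16), both without overlap, and Stam by -0.46 (SE 0.26). Tsg101, the partner of ARRDC1, differed by -0.012 (SE 0.20).

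The thioredoxin system had 8 of 11 measured, 2 above 0 and 6 below, with a median of -0.052. Txn1, the thioredoxin that TXNIP binds, differed by -0.34 (SE 0.24), Nxn, a thioredoxin relative, by -0.34 (SE 0.27) and Casp1 by 0.12 (SE 0.16). Glucose sensing had 6 of 8 measured, with a median of 0.015. Mlxip, which encodes MondoA, differed by 0.27 (SE 0.21), and Prkaa1, a catalytic subunit of AMPK, by -0.30 (SE 0.29). In these 2 lists 0 genes had groups that did not overlap.

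FOXO factors and targets had 17 of 23 measured, 7 above 0 and 10 below, with a median of -0.027. Of the 17, 4 had CKO wholly below Control, Ccng2, Pik3ip1, Cdkn1b and Cited2, where 5.01% of all genes did, and 0 had CKO wholly above. The list was drawn up with the differences of Ccng2 and Cited2 already known, and Cited2 is named because of its values, so the count is a description. Ccng2, an atypical cyclin linked to cell cycle arrest, read 7.60, 7.45 and 7.84 on CKO replicates D, E and F, against 8.85, 8.74 and 8.57 on Control replicates A, B and C. It lay lower on every CKO array by more than the spread within either group, with a difference of -1.09 (SE 0.18) and an adjusted p of 0.695 by limma. Pik3ip1, an inhibitor of PI3 kinase, differed by -1.02 (SE 0.30), Cdkn1b, a cyclin-dependent kinase inhibitor, by -0.64 (SE 0.22), and Cited2, a transcriptional co-regulator, by -0.92 (SE 0.36), each with an adjusted p of 0.976. With no background correction Pik3ip1 differed by -0.54 and Cdkn1b by -0.30. Foxo1 differed by 0.52 (SE 0.53), and Foxo3 by -0.52 (SE 0.42).

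Genes that respond to glucocorticoids or progesterone had 14 of 17 measured, 6 above 0 and 8 below, with a median of -0.060 and 0 without overlap. Tsc22d3, a target of the glucocorticoid receptor also called GILZ, differed by -0.67 (SE 0.31). Klf9, a progesterone receptor co-regulator in the uterus, differed by 0.53 (SE 0.29) and Nfkbia, an inhibitor of NF-kappa-B, by 0.50 (SE 0.29). Fkbp5 differed by -0.077 (SE 0.52).

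**Figure D4:**
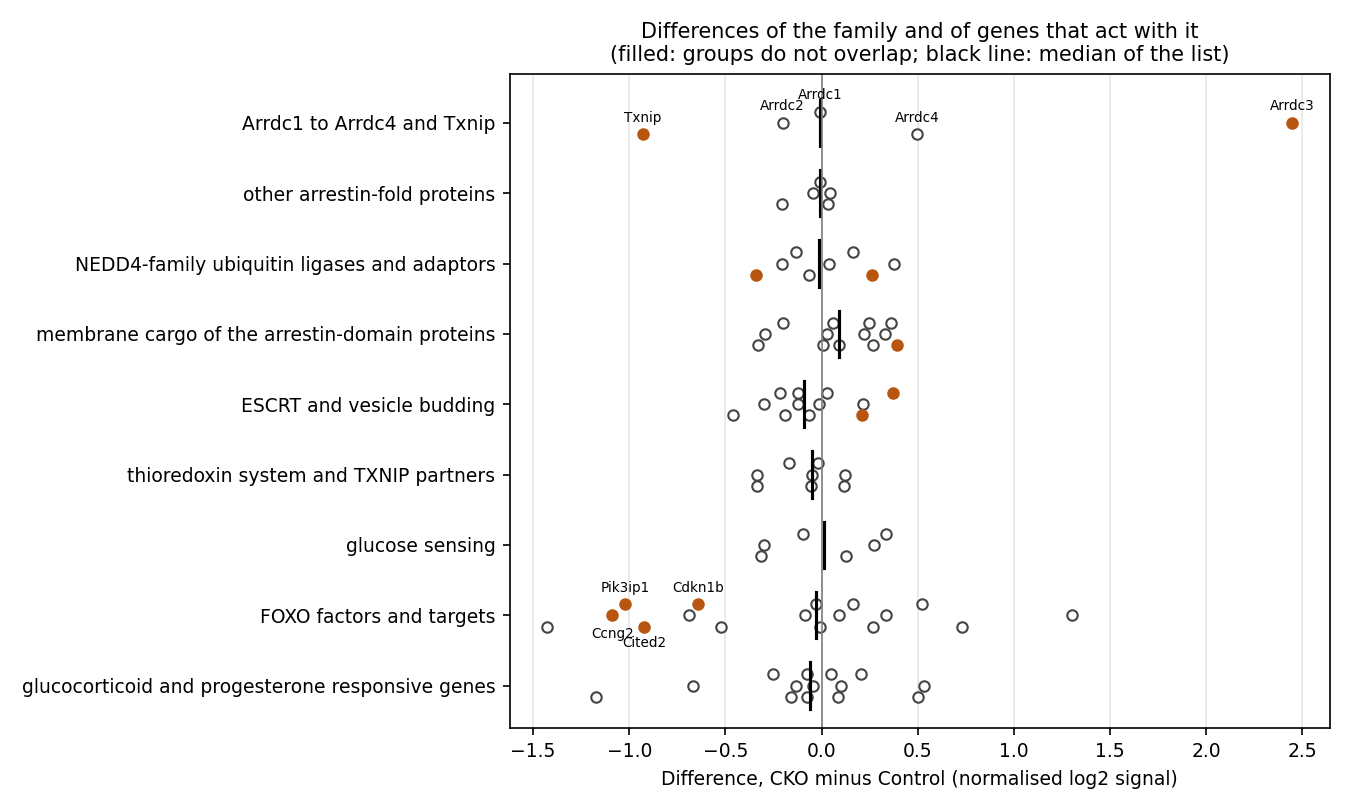
Difference of CKO minus Control on the normalised log2 scale (x axis) of each measured gene of the family, in the top line, and of the 8 lists of genes that act with it, 1 line each; filled circles mark genes whose groups do not overlap and black bars the median of each line. Arrdc3 at 2.45 lies to the right of every other gene shown, the medians lie between -0.094 and 0.089, and the 4 filled circles among FOXO factors and targets are all below 0.

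Pan-epithelial markers had a mean deviation of -0.54 on CKO replicate E and of 0.035 to 0.23 on the other arrays. Luminal markers had mean deviations from -0.28 on Control replicate C to 0.29 on Control replicate B. Markers of other cells varied between the arrays too. Mesothelium markers had mean deviations from -0.96 on CKO replicate F to 1.61 on D. Erythroid markers ran from -0.75 on Control replicate C to 1.02 on F, and smooth muscle markers from -0.93 on F to 0.66 on E. Each of these lists had 3 markers measured. Stroma markers had 7 of 10 measured, and Pdgfra, Hoxa11 and Hand2 were above background on 1 array at most. Dcn, Lum, Vim and Thy1 were above background on every array, Dcn at 9.50 to 12.36. The mean deviation of the stroma markers was 1.03, 0.57 and -0.85 on CKO replicates D, E and F and -0.35 to -0.11 on the Control arrays. Arrdc3 read 10.03, 10.85 and 9.90 on D, E and F and 7.64 to 8.02 on the Control arrays. Endothelium markers, with 5 of 7 measured, had mean deviations of 0.35, 1.04 and -0.67 on D, E and F and -0.47 to -0.11 on the Control arrays. Glandular markers, with 4 of 6 measured and Foxa2 above background on 2 arrays, had their highest mean deviation on E (1.62) and their lowest on Control replicate C (-1.45). Replicates E and C were also the highest and the lowest for Arrdc3 and for Arrdc4, and the lowest and the highest for Txnip. The other arrays had glandular deviations of 0.92 on Control replicate A, 0.33 on B, -0.78 on CKO replicate D and -0.63 on F. Arrdc3 read 8.02 on A, 7.78 on B, 10.03 on D and 9.90 on F. Of all marker genes measured, 2 had groups without overlap, where 10.6% of all genes did in either direction. They were 1 of the 4 glandular and 1 of the 7 luminal markers, and no other marker list had any. Sox9, a glandular marker, averaged 10.47 ± 0.29 in CKO and 8.89 ± 1.24 in Control, and Ltf, a luminal marker that encodes lactotransferrin, 11.57 ± 0.31 in CKO and 12.70 ± 0.79 in Control (SD, n = 3 each), each with an adjusted p of 0.976 by limma. By the same test 0 genes of any marker list were called. Of the 4 measured glandular markers 2 lay above 0 and 2 below, with a median difference of -0.036. Of the 7 measured luminal markers 4 lay above 0 and 3 below, with a median difference of 0.06. Stroma markers had 5 above 0 and 2 below, with a median difference of 0.51. Endothelium markers had 4 above 0 and 1 below, with a median difference of 0.64. The part of these markers in the values of Arrdc3, Arrdc4 and Txnip was not tested. In bulk samples a smaller share of a cell type and less RNA per cell cannot be told apart.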

How the data were processed

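Signals of 6 bead arrays were analysed. Per the file headers, the scanner tables that the authors deposited hold, per probe, the linear intensity averaged over beads, a detection p-value, the standard error over beads and the number of beads. The intensity values were neither background-subtracted nor scaled between arrays. The authors also deposited processed intensity values, which, set against the raw ones, had been background-subtracted and quantile-normalised on a linear scale (every array's median was 6.4). The sources used here name no software for either.

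For background correction normexp was run on the raw intensities, using negative controls worked out from detection p-values. An offset of 16 was added before quantile normalisation and log2 (neqc steps in limma 3.58.1, R 4.3.3). The offset shrinks fold changes of dim probes. Probes with a detection p-value under 0.05 on at least 3 of 6 arrays were kept. By RefSeq accession 29370 probes were named and by current or older symbol 6953, while 8904 kept the file's name and 54 with an ambiguous name were left out. The probe with the highest mean stood for its gene. CKO was compared with Control by two-sided tests from lmFit and eBayes, with p adjusted by Benjamini-Hochberg over 11933 genes and a threshold of 0.05. The fit was tested on simulated data. Alternatives covered background correction, scaling, the deposited values, the filter, the handling of probes, the eBayes settings, array weights and leaving out each array. Protein sequences were not analysed here. Members, lists, motifs, tests and alternatives were chosen with earlier results of these data known. The named genes were the members, Bmpr1a, the called genes, the 3 genes of each list with the smallest p, and the 5 genes nearest to each member; 1 gene that this rule names is not reported here. Arrb2, Arrb1, Slc2a1, Tsg101, Cited2, Foxo1, Foxo3, Fkbp5, Sesn1, Gadd45a, Depp1, Sgk1, Arrdc5 and the marker genes were named besides.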

Additional observations from a re-analysis of the deposited data

How the results depend on the processing

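All 17 alternatives were planned. Arrdc3 stayed higher in CKO under each of them, from 2.18 to 2.45, and from 2.17 to 2.63 with single arrays left out. Txnip stayed lower under each, from -1.01 to -0.80, and from -1.12 to -0.74 with single arrays left out, and passed under none. Arrdc4 kept its sign, from 0.19 to 0.74 with single arrays left out and at 0.082 with array weights. Arrdc1 turned to 0.0034 with array weights, and leaving out single arrays gave -0.13 to 0.16, and Arrdc2 ran from -0.44 to 0.060. Genes higher in CKO, 2 in all, were 1 with normexp without controls and an offset of 50, 1 with no background correction, 1 with median scaling, 1 with the deposited values and 1 with cyclic loess. They were 3 with each probe as its own row, 3 with trended and robust eBayes, which added Erdr1, and 2 with the mean of probes. They were 0 with no filter, 0 with the strict filter, 5 with array weights, and 0 to 1 when each array was left out in turn (1 without replicate A). The 5 included Arrdc3, which the contrast itself had chosen. Genes lower in CKO and called genes of the 8 lists stayed at 0 under all alternatives (562 genes had an unadjusted p under 0.05). Of 24 named list genes 21 kept their sign under each alternative that measured them, but 18 moved by over 1.5 times when 1 array was left out and 21 under another alternative. Leaving out 1 array brought Tsc22d3 to as little as -0.36, F2rl1 to 0.14, Nxn to -0.12, Txn1 to -0.18, Prkaa1 to -0.11 and Nfkbia to 0.26. With array weights Txn1 differed by only -0.018, Nxn by -0.024 and F2rl1 by 0.094. Vps26b turned to -0.043 with median scaling and ran from -0.022 to 0.11 with single arrays left out, Vps26a ran from -0.12 to 0.0044, and Itch turned to 0.0037 with the mean of probes. The cause was not tested. No paired analysis was possible because the labels give the groups different replicate letters. Signal over background limits the dimmer Arrdc2 probe, and also Stam, Avpr2, Pik3ip1 and Cdkn1b, which the strict filter left out. Stam was above background on 2 CKO arrays and Avpr2 on 2 Control arrays. Stam differed by -0.20 with no background correction.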

Other observations

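Several genes on the FOXO and steroid lists varied between arrays by more than they differed between the groups. They were singled out after their values were seen and are given as values only. Sesn1, a sestrin that restrains mTOR signalling, read 10.41, 6.91 and 10.24 on CKO replicates D, E and F, against 9.75, 10.66 and 11.43 on Control replicates A, B and C, so E lay far below every other array. Gadd45a, a stress-induced gene, was highest on E at 13.71 and lowest on Control replicate C at 9.10. Depp1 read 12.37 on E and 10.13 on Control replicate A, and between 4.76 and 5.13 on the other 4 arrays. It was above background on 2 CKO arrays and 1 Control array. Sgk1, a steroid-induced kinase, read 10.29, 10.29 and 10.93 on the CKO arrays D, E and F, while the Control arrays A, B and C spread over 9.12, 11.97 and 13.94.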
